A study of Arabidopsis thaliana with 57 samples.

Results

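The genes described here are 41 genes that load, start and run the DNA replication fork in Arabidopsis thaliana: the MCM2 to MCM7 helicase subunits, the origin recognition complex, CDC6 and CDT1, CDC45, MCM10 and the GINS subunits, PCNA and its loader subunit RFC1, the replicative polymerases, RPA, ribonucleotide reductase, LIG1, FEN1, TOP2 and the CAF-1 subunits FAS1 and FAS2. They were taken by gene identifier from a table of 27655 counted genes, and all 41 were counted and tested in every comparison. Their transcripts were followed in cells sorted from seedlings in which a transcription factor of the stomatal lineage had just been switched on. The 5 lines all carried the FAMA promoter driving a dexamethasone (DEX)-activated LhG4-GR driver. Through the OPp promoter this driver induced Venus-tagged FAMA (11 libraries), SPCH (12), SRDX-FAMA (12), SRDX-SPCH (11) or a nuclear localization signal alone (NLS, 11), which served as the control. SRDX is a repression domain fused to the factor. DEX was applied at 30 µM to seedlings aged 10 days from germination. After 2, 3 or 4 h the tissue was protoplasted for 2 h, and about 3000 Venus-positive cells were sorted for each library. The times given here are those of DEX before protoplasting. All lines, NLS included, therefore had DEX, the driver, protoplasting and sorting in common. Among genes lower than in NLS in its SPCH or FAMA lines, the study found terms for DNA replication, mitosis and asymmetric division enriched. It then focused on changes over time and on SPCH against FAMA. The study reasoned that a limit of NLS as a control could lie behind the enriched terms. The Venus fluorescence of NLS differed in strength from that of the factor lines, so more weakly fluorescent cells may have entered its sort. Such a difference in cell make-up cannot be told apart from that between the lines. The driver restricts the comparison to cells in which the FAMA promoter is active, mainly guard mother cells (GMCs) and guard cells (GCs) with some myrosin cells.

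Before a cell can copy its DNA, the origin recognition complex, CDC6 and CDT1 load the MCM2-7 ring onto origins, a step called licensing. In S phase CDC45 and GINS switch the ring on as the moving helicase, and polymerases α, δ and ε copy the strands. PCNA keeps the polymerases on the template, RPA covers single strands, and FEN1 and LIG1 finish the lagging strand. In the stomatal lineage GMCs divide once to give a pair of GCs. FAMA is known for ending these divisions and for GC identity, and SPCH for starting the lineage.

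Counts summed to between 7296381 and 60348384 per library, with a median of 33317326. The induced genes followed the labels in all libraries but 1: the library labelled SRDX-FAMA 4 h replicate 2 held SPCH at 9661 CPM (counts scaled to a common library size) and FAMA at 344.5 CPM, against line medians of 31.9 and 3797 CPM, and the calls of members that use it are given with and without it, while line means, ranges and list counts include it. A single FAMA library also held SPCH at 279.8 CPM, against a line median of 11.7 CPM. The sorted cells carried markers of several cell types. Summed over 3 genes, myrosin cell markers reached 26030 to 67380 CPM (median 42230) in FAMA cells and 45870 to 84110 CPM (median 66930) in SPCH cells, against 23070 to 45380 CPM (median 31710) in NLS cells. They reached 12470 to 46080 CPM (median 20420) in SRDX-FAMA cells and 31850 to 58820 CPM (median 46300) in SRDX-SPCH cells. The part of this make-up in the results below was not tested.

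The 41 genes were expressed at very different levels. Per kilobase of exon (RPKM, a scale on which genes can be compared), the highest in NLS cells was RNR2A, a small subunit of ribonucleotide reductase, which makes deoxyribonucleotides, at 35.7 ± 6.19 RPKM (SD, n = 11). LIG1, the ligase that seals the lagging strand, followed at 16.2 ± 1.499 RPKM and RPA1A, a large RPA subunit, at 15.04 ± 1.59 RPKM. The order of these 2 was not tested. TOP2, the type II topoisomerase that untangles copied DNA, and the flap nuclease FEN1 stood at 9.95 ± 3.24 and 9.63 ± 2.12 RPKM. RFC1, the large subunit of the clamp loader, stood at 7.66 ± 0.828 RPKM and TSO2, another small subunit of ribonucleotide reductase, at 7.18 ± 1.898 RPKM. The sliding clamp genes PCNA2 and PCNA1 had 7.14 ± 1.72 and 5.295 ± 1.24 RPKM. Among the genes of licensing CDT1B and CDT1A stood at 3.47 ± 1.27 and 3.24 ± 0.6404 RPKM. The 6 MCM genes had means between 0.783 RPKM (MCM4) and 1.58 RPKM (MCM7), the 7 origin recognition genes between 0.508 RPKM (ORC1B) and 4.06 RPKM (ORC1A), and the lowest of all was CDC6B at 0.289 ± 0.126 RPKM. The coefficient of variation over the 11 NLS libraries was 9.28% for LIG1, 10.8% for RFC1, 26.45% for TSO2 and 32.5% for TOP2 among the abundant genes, and 15.7% for PSF3, 47.5% for MCM6 and 62.7% for CDC6 among the rarer ones. Rare genes rest on few counts, down to a median of 16 counts a library for the lowest gene in any line. CDC6B had 0 counts in SRDX-SPCH 2 h replicate 3, the shallowest library, where 3 counts would be 0.411 CPM of the raw library total.

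**Figure D1:**
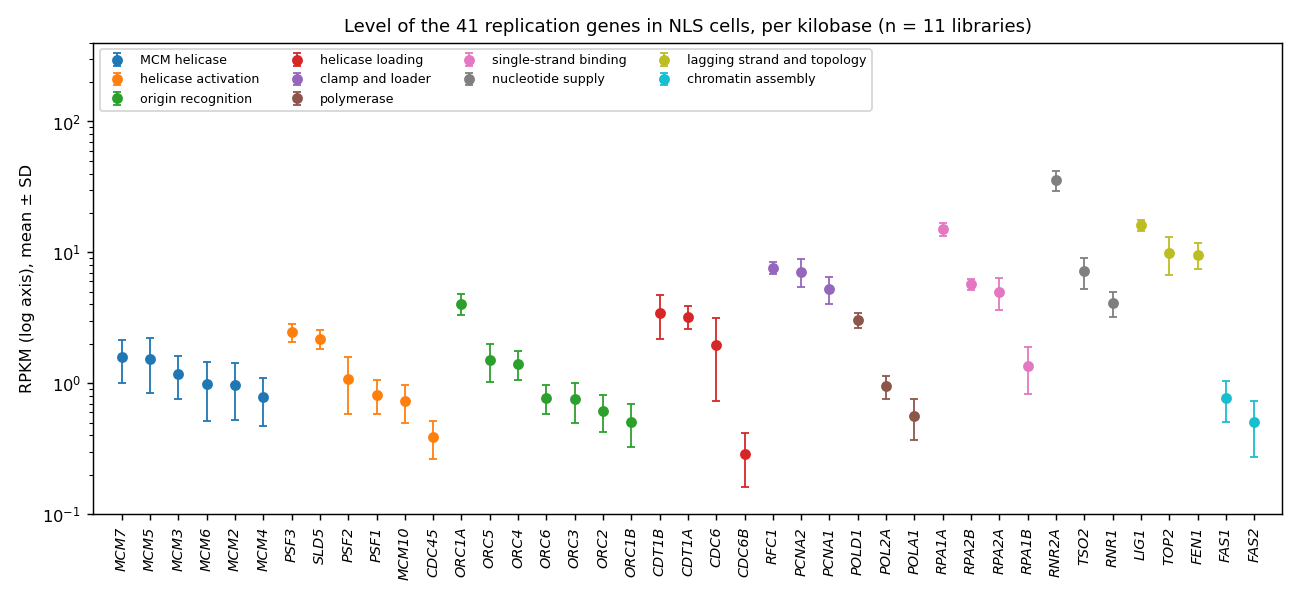
Mean RPKM ± SD of each of the 41 genes over the 11 NLS libraries, on a log axis, ordered by role and by level within a role. RNR2A is the highest and CDC6B the lowest, and the 6 MCM genes lie between 0.783 and 1.58 RPKM.

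What the promoters of these genes share was read from the TAIR10.1 sequence with RefSeq gene models, in a window of 250 bases before to 50 bases after each annotated start. E2F factors turn on S-phase genes through sites of the form TTTCCCGC and relatives, and the variants TTTCCCGC, TTTGGCGC, TTTCGCGC and TTTGCCGC were searched on both strands. At least 1 of them lay in the window of 17 of the 41 genes (41.5%), 11 of 34 other replication genes (32.4%), 0 of 24 mitotic genes and 483 of all 27444 promoters (1.76%). The 17 were MCM2, MCM3, MCM4, MCM5, MCM6, PSF2, ORC1A, ORC2, ORC3, ORC4, CDC6B, POLA1, RPA1B, RNR1, FEN1, FAS1 and FAS2. The mitosis-specific activator element, through which MYB3R factors act on genes of G2 and mitosis, has the core AACGG, a motif searched after the results were known. This core was found in 12 of the 41 genes (29.3%), 9 of the 34 other replication genes (26.5%), 17 of the 24 mitotic genes (70.8%) and 6765 of all promoters (24.7%). None of the searched E2F sites contains this core. The stretches below are those of the MCM genes with an E2F variant and of POLA1, RNR1 and FEN1. MCM7, also described below, had no E2F variant in its window. Capitals mark the E2F motif, and each sequence reads 5′ to 3′ on the strand of its gene. A match is no evidence of a bound site.
MCM2 (chr1:16970189-16970218, plus strand): tggcgccaataTTTCCCGCctaatcgacga
MCM3 (chr5:18773858-18773887, minus strand): ggaaatcaaacGCGCCAAAcaagcgcgtag
MCM4 (chr2:7130746-7130775, minus strand): cagtaataatgGCGCCAAAatcaagtgaag
MCM5 (chr2:3527501-3527530, minus strand): cggcccatcagTTTCCCGCcacattgttcc
MCM6 (chr5:18010695-18010724, minus strand): tatactttttaGCGGGAAAatgttagagga
POLA1 (chr5:26776891-26776920, plus strand): atcgtgtcgatTTTCCCGCcatctccattt
RNR1 (chr2:9293260-9293289, plus strand): cctagaagctgGCGGGAAAatcccaaaact
FEN1 (chr5:9315549-9315578, minus strand): gtgttgaggagGCGGGAAAacaattatcat
TOP2 and CDT1B, the 2 of the 41 genes with the largest fold changes between lines, had none of the E2F variants in this window. Their stretches with the AACGG core (CCGTT when read on the other strand, in capitals) were these.
TOP2 (chr3:8624570-8624599, plus strand): agttaatcacagCCGTTagattccttataa
TOP2 (chr3:8624656-8624685, plus strand): ttcggtcaaacaccaaCCGTTgtaattctc
CDT1B (chr3:20251823-20251852, plus strand): aatttctattagCCGTTacgctctctaact
The core is not particular to these 2: the other 10 members with it were MCM6, MCM7, MCM10, CDC45, PSF1, ORC2, ORC4, ORC6, CDT1A and POLA1. Of these MCM6, ORC2, ORC4 and POLA1 also held an E2F variant, and POLA1 held a further variant, TTTGGCGC, upstream of the stretch shown. The windows of RNR2A and TSO2 had neither motif. These letters say only what is in the windows.

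In FAMA cells 2 of the 41 genes were lower than in NLS cells and none was higher by edgeR's quasi-likelihood test at an adjusted p of 0.05, while 5.47% of all 24366 genes tested were called lower and 1.95% higher. The first was TOP2 (AT3G23890, chromosome 3 of TAIR10.1, 8624636 to 8631392). Its level ran from 1.81 to 9.21 CPM (median 6.91) in FAMA cells, against 27.1 to 81.6 CPM (median 50.4) in NLS cells. The highest FAMA library stayed below the lowest NLS library. This was 8.798-fold lower (log2 fold change -3.14, SE 0.289, adjusted p = 7.235e-08). The second was CDT1B (AT3G54710, chromosome 3 of TAIR10.1, 20251812 to 20254323), one of a pair of genes for the licensing factor that brings MCM2-7 to origins. CDT1B ran from 0.845 to 3.11 CPM (median 1.75) in FAMA cells, against 3.98 to 11.4 CPM (median 5.501) in NLS cells, again without overlap, and was 3.51-fold lower (log2 fold change -1.81, SE 0.232, adjusted p = 9.348e-06). Its paralog CDT1A did not pass, with 6.47 ± 1.15 CPM in FAMA and 7.05 ± 1.395 CPM in NLS cells (SD, n = 11 each), a log2 fold change of -0.11 and a 95% interval of -0.36 to 0.14. In these bulk samples fewer cells that express a gene and less RNA per cell cannot be told apart.

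The other 39 genes had log2 fold changes between -0.41 (MCM6) and 0.45 (CDC6B), and the median over the 41 was 0.03, beside 0.04 over all genes tested. For 38 of the 41 the 95% interval lay within 1 log2 unit of 0, a change of at most 2-fold in either direction, and for 18 within 0.5; the 3 with wider reach were TOP2, CDT1B and CDC6B. All 6 MCM genes had values below 0 with a median of -0.30, and none passed. The 7 origin recognition genes lay between -0.34 and 0.35, the 6 genes of helicase activation (GINS, MCM10 and CDC45) between -0.11 and 0.38 and the 4 RPA genes between -0.17 and 0.15. The 3 polymerase genes lay between 0.02 and 0.09. By unadjusted p under 0.05 the only others were PCNA1 (0.36, adjusted p = 0.1477) and RNR2A (0.28, adjusted p = 0.05684), both higher in FAMA cells. With DESeq2, and with a filter of at least 10 counts in every library, RNR2A was the third call. The comparisons with NLS described from here on all use the same 11 NLS libraries.

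**Figure D2:**
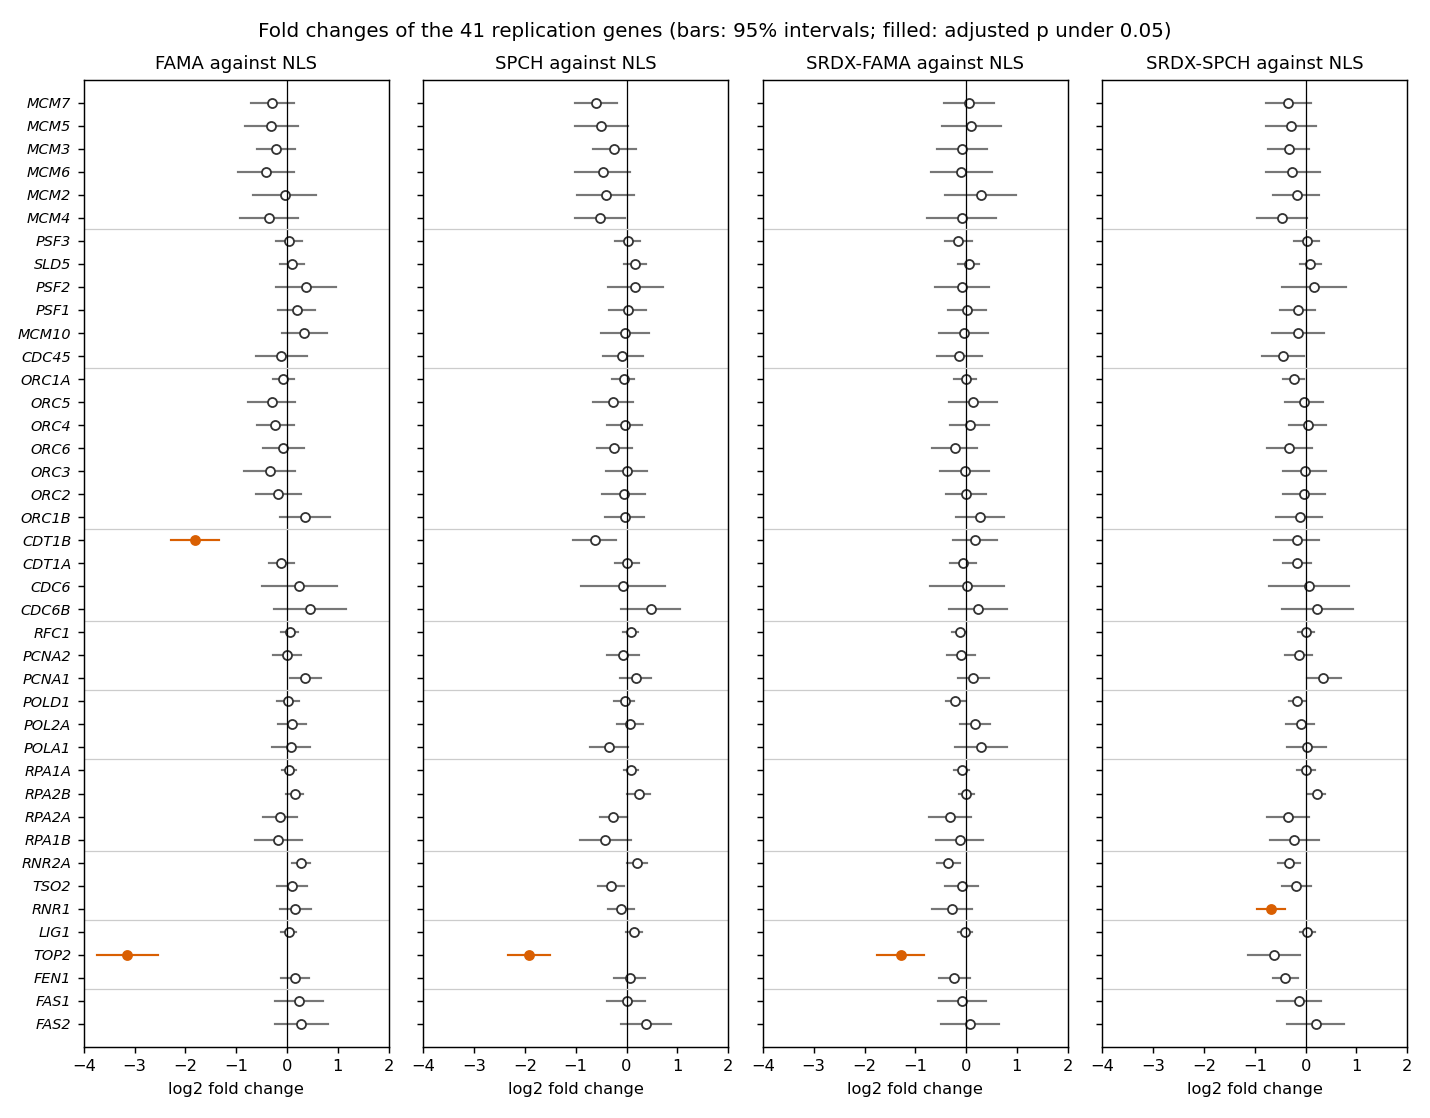
Log2 fold change of each of the 41 genes in FAMA, SPCH, SRDX-FAMA and SRDX-SPCH cells against NLS cells, by role from the MCM helicase at the top to chromatin assembly at the bottom; bars are 95% intervals and filled points have an adjusted p under 0.05 in edgeR. TOP2 stands apart in 3 panels at -3.14, -1.92 and -1.29, CDT1B in the FAMA panel at -1.81, and RNR1 in the SRDX-SPCH panel at -0.68.

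TOP2 and CDT1B fell in FAMA cells alongside the genes of mitosis. All 24 mitotic genes on the list fell in FAMA cells, with a median log2 fold change of -2.40, and their sum was 38.2 to 129 CPM (median 72.1) in FAMA cells, against 189 to 511 CPM (median 301) in NLS cells. The 3 with the smallest adjusted p were the kinase gene CDKB2;1 (-3.64, adjusted p = 8.709e-10), the Aurora kinase gene AUR3 (-2.61, adjusted p = 3.007e-09) and CDKB1;1 (-2.89, adjusted p = 3.357e-09). The replication genes outside the 41 stayed near 0 in the median (-0.00 over 34 genes), with POLD2, a polymerase δ subunit, and RPA1E, a further large RPA subunit, called lower (-0.45, adjusted p = 0.001833, and -0.48, adjusted p = 0.04017). None of the 5 genes for histone H3.1, the form laid down during replication, passed; their median was -0.29. Markers of meristemoids and GMCs moved in the same direction as TOP2 and CDT1B: 5 of 7 fell and none rose. Their sum was 153 to 281 CPM (median 243) in FAMA cells, against 278 to 436 CPM (median 348) in NLS cells. Mature GC markers summed to 880.3 to 1766 CPM (median 1145) in FAMA cells, against 795 to 1599 CPM (median 969.2) in NLS cells. For mesophyll and photosynthesis markers the sums were 1640 to 5884 CPM (median 3732), against 1172 to 8421 CPM (median 2801). Both pairs of ranges overlap. The part of cell make-up in the 2 calls was not tested.

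**Figure D3:**
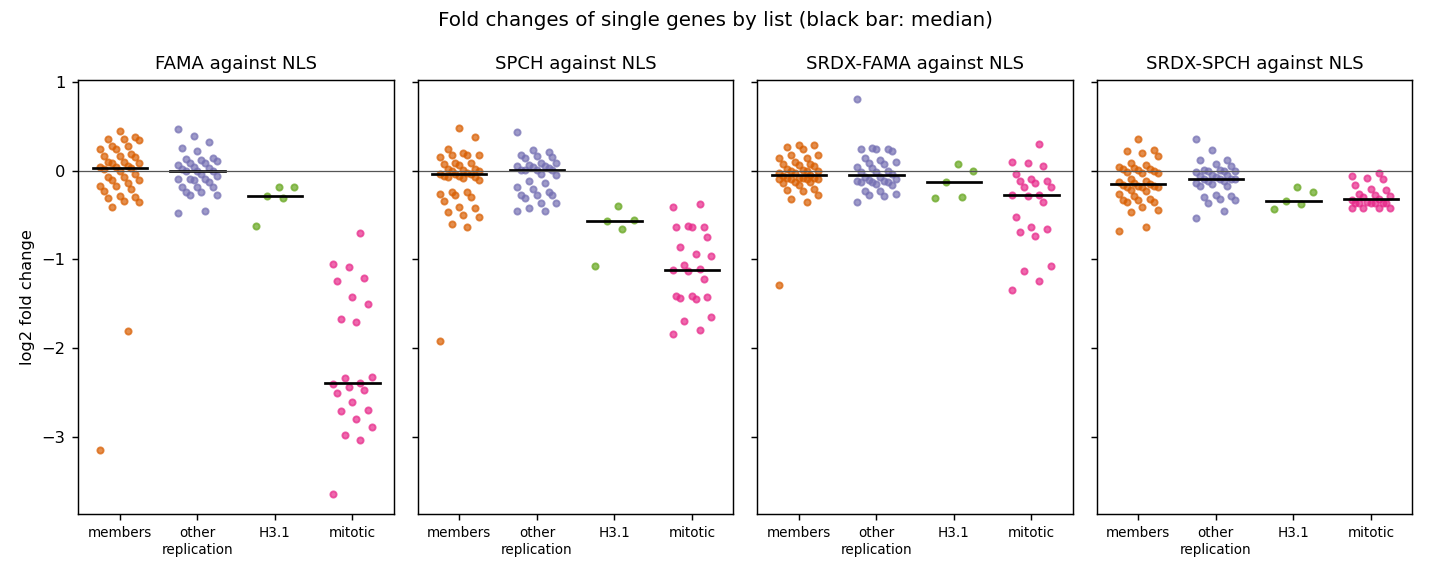
Log2 fold change against NLS of single genes in 4 lists (the 41 members, other replication genes, H3.1 histone genes and mitotic genes) in each of the 4 lines; each point is 1 gene and black bars are medians. In FAMA cells the mitotic genes have a median of -2.40 and the members of 0.03; in SPCH cells these medians are -1.12 and -0.04.

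In SPCH cells TOP2 alone passed the test, lower than in NLS cells, with 4.13% of all 24611 genes called lower and 2.71% higher. TOP2 ran from 6.63 to 20.3 CPM (median 13.1) in SPCH cells over 12 libraries, below every NLS library, and was 3.79-fold lower (log2 fold change -1.92, SE 0.197, adjusted p = 8.363e-07). CDT1B had 2.11 to 6.87 CPM (median 4.23) in SPCH cells, which overlaps the NLS range, and did not pass (log2 fold change -0.63, SE 0.203, adjusted p = 0.06206). The MCM genes were again all below 0, between -0.60 (MCM7) and -0.24 (MCM3), with a median of -0.49 beside -0.04 for the 41 genes and 0.01 for all genes. MCM7 came nearest to the threshold: it ran from 1.66 to 4.43 CPM (median 2.38) in SPCH cells, against 2.45 to 7.74 CPM (median 3.63) in NLS cells, ranges that overlap although the SPCH median lies below the lowest NLS library (adjusted p = 0.08247). Of the mitotic genes 22 of 24 were lower, with a median of -1.12, led by CDKB1;1 (-1.69, adjusted p = 2.16e-07), AUR3 (-1.65, adjusted p = 1.555e-06) and CDKB2;2 (-1.44, adjusted p = 4.895e-06). Among the 34 other replication genes THY-2, a thymidylate synthase gene, was the single call (-0.31, adjusted p = 0.02147), and 2 of 5 H3.1 genes were lower, AT3G27360 at -1.07 and AT1G09200 at -0.56. Meristemoid and GMC markers summed to 165 to 545 CPM (median 315) in SPCH cells, with 2 of 7 lower. Of the myrosin cell markers 2 of 3 were higher. In SPCH cells mature GC markers summed to 820.8 to 1617 CPM (median 1274), and mesophyll and photosynthesis markers to 2146 to 4242 CPM (median 3371). These ranges overlap those of NLS cells given above. The part of these markers in the result was not tested.

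How many members passed in SPCH cells depended on the fit, and the count was 3 with DESeq2 (TOP2, CDT1B, MCM7), 2 with at least 10 counts in every library (TOP2, CDT1B) and 5 with the library letter as a block (TOP2, CDT1B, MCM5, MCM7, TSO2). It was also 3 without SPCH 4 h replicate 2 (TOP2, MCM7 and RPA2B) and 2 without SPCH 4 h replicate 3 (TOP2, CDT1B). TOP2 was called in every one of these fits. Shares of all genes called are not given for these fits, so the counts cannot be weighed against them. The letter is part of each library's name, and the labels do not say what it stands for.

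With the repression domain on the factor, 1 member was called in each line. In SRDX-FAMA cells TOP2 was the single call, with 1.32% of 24327 genes called lower and 0.929% higher. It ran from 9.17 to 34.1 CPM (median 21.1) in SRDX-FAMA cells, against 27.1 to 81.6 CPM (median 50.4) in NLS cells, so that the upper SRDX-FAMA libraries reached into the NLS range, and it was 2.45-fold lower (log2 fold change -1.29, SE 0.226, adjusted p = 0.001533). Without the library labelled SRDX-FAMA 4 h replicate 2 its log2 fold change was -1.28 (adjusted p = 0.002267), and no member moved by more than 0.10, while over all genes 453 were called lower and 356 higher, against 321 and 226 with it. CDT1B had 3.097 to 12.5 CPM (median 6.65) in SRDX-FAMA cells, a log2 fold change of 0.18 and an interval of -0.26 to 0.61. RNR2A was the second call with DESeq2, with at least 10 counts in every library and with the letter block, at -0.35 and an adjusted p of 0.08516 in the edgeR fit. Mitotic genes were lower for 6 of 24, with a median of -0.28. Of the cell type markers 1 of 7 for meristemoids and GMCs and 2 of 9 for mature GCs were lower than in NLS cells, and their part in the TOP2 value was not tested.

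In SRDX-SPCH cells the single call was RNR1 (AT2G21790, chromosome 2 of TAIR10.1, 9293261 to 9297861), the large subunit of ribonucleotide reductase, with 0.968% of 24480 genes called lower and 1.7% higher. RNR1 ran from 5.297 to 11.2 CPM (median 7.26) in SRDX-SPCH cells, against 9.49 to 18.3 CPM (median 11.3) in NLS cells; the upper SRDX-SPCH and the lower NLS libraries overlap, and it was 1.61-fold lower (log2 fold change -0.68, SE 0.135, adjusted p = 0.006014). TOP2 had 11.6 to 56.1 CPM (median 32.02) in SRDX-SPCH cells and did not pass (log2 fold change -0.63, SE 0.245, adjusted p = 0.2255). No mitotic gene passed here, although 3 of 24 had an unadjusted p under 0.05, and their median was -0.33. Of the markers 1 of 7 for meristemoids and GMCs was lower and 1 of 3 for myrosin cells higher, and their part was not tested. The count of members was 3 with DESeq2 and with at least 10 counts in every library (RNR1, RNR2A, FEN1), and 3 with the letter block (RNR1, RNR2A, TOP2). It was 2 without SRDX-SPCH 4 h replicate 1 (RNR1, RNR2A) and 2 without SRDX-SPCH 2 h replicate 4, NLS 2 h replicate 1 or NLS 4 h replicate 4 (RNR1, FEN1 each). RNR2A stood at -0.33 (adjusted p = 0.09107) and FEN1 at -0.41 (adjusted p = 0.06911) in the full set.

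Among the driven lines themselves the means of TOP2 were graded, and those of CDT1B were lowest in FAMA and SPCH cells. TOP2 means were 5.61 ± 2.82 CPM in FAMA cells, 13.3 ± 4.304 in SPCH cells, 20.7 ± 8.695 in SRDX-FAMA cells, 32.4 ± 15.3 in SRDX-SPCH cells and 49.8 ± 16.2 in NLS cells (SD, n = 11 or 12). Neighbouring lines overlap in their libraries, and the step of SRDX-SPCH over SRDX-FAMA did not pass (log2 fold change 0.64, SE 0.235, adjusted p = 0.163). CDT1B means were 1.78 ± 0.742 CPM in FAMA cells, 3.99 ± 1.47 in SPCH cells, 7.16 ± 3.09 in SRDX-FAMA cells, 5.43 ± 2.27 in SRDX-SPCH cells and 6.33 ± 2.32 in NLS cells; here the lines other than FAMA and SPCH lay close together.

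**Figure D4:**
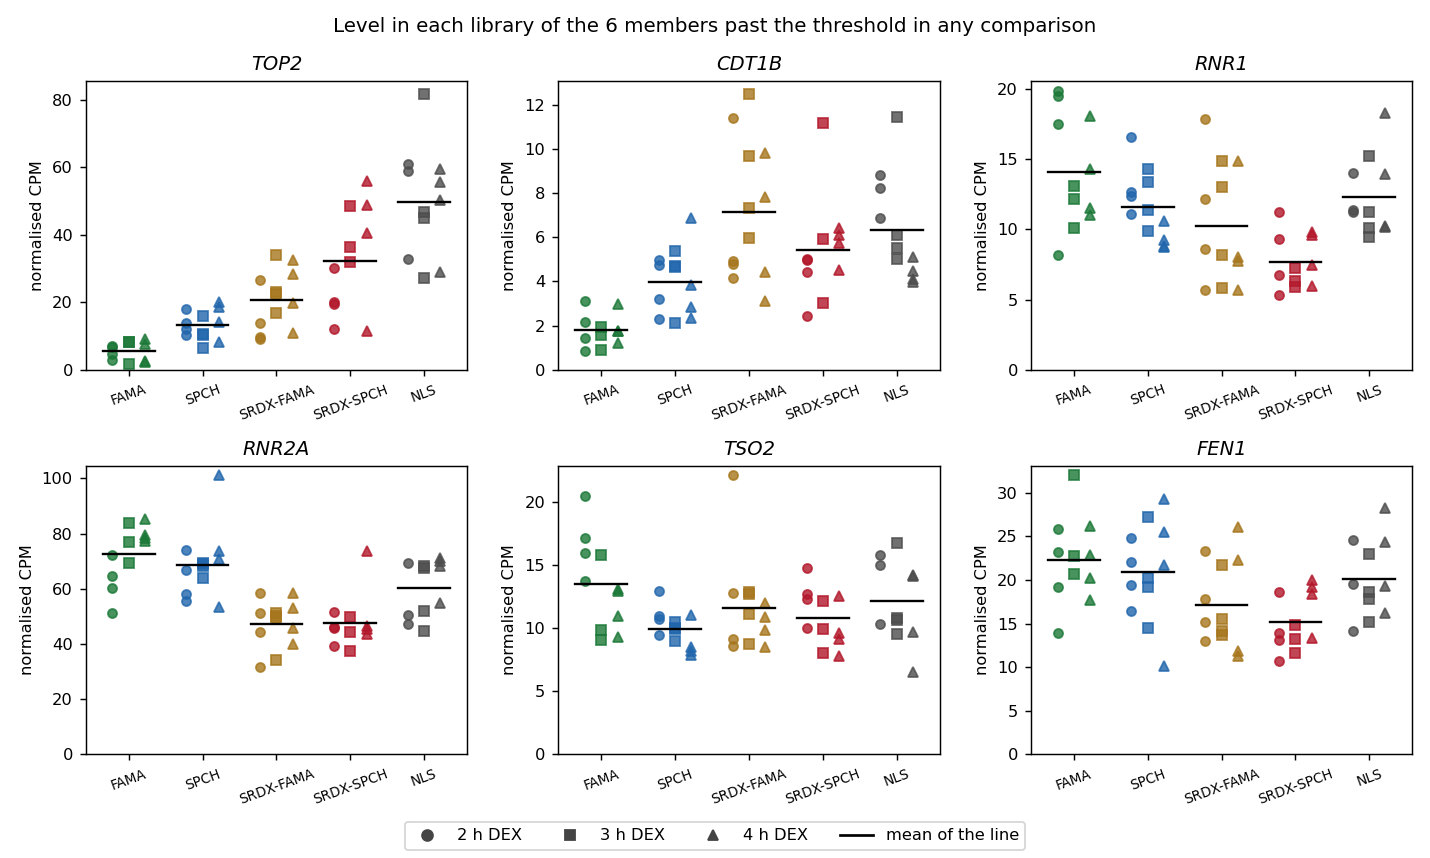
Normalised CPM in each of the 57 libraries of the 6 genes past the threshold in any comparison of lines, with FAMA, SPCH, SRDX-FAMA, SRDX-SPCH and NLS from left to right; symbols give the time of DEX and black bars the mean of the line. All FAMA points of TOP2 (1.81 to 9.21) and CDT1B (0.845 to 3.11) lie below all NLS points (27.1 to 81.6 and 3.98 to 11.4).

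Set directly against FAMA cells, SPCH cells had higher CDT1B and TOP2 and lower TSO2, 3 calls of 41, with 0.855% of 24549 genes called higher and 0.713% lower. TOP2 was 2.38-fold higher (log2 fold change 1.25, SE 0.2697, adjusted p = 0.01441) and CDT1B 2.29-fold higher (log2 fold change 1.19, SE 0.245, adjusted p = 0.0105), and the ranges of the 2 lines overlap for both genes. TSO2 (AT3G27060, chromosome 3 of TAIR10.1, 9979841 to 9981620) ran from 7.85 to 12.9 CPM (median 9.96) in SPCH cells, against 9.07 to 20.5 CPM (median 13.2) in FAMA cells, and fell by 0.40 on the log2 scale (adjusted p = 0.04712). This call was not firm: it was lost when any of 17 of the 23 libraries was left out (adjusted p up to 0.1135 without FAMA 3 h replicate 3), and kept only without FAMA 2 h replicate 4, FAMA 3 h replicate 1 or 2, FAMA 4 h replicate 2, SPCH 3 h replicate 2 or SPCH 4 h replicate 2 (down to 0.01855). It was also lost with the replicate number as a block (adjusted p = 0.203, in a fit without the unnumbered FAMA 4 h library) and in 1 fit of all libraries (0.1785). Leaving out that unnumbered library alone, 1 of the 17, also lost the call. Mitotic genes were higher for 18 of 24, with a median of 1.16, and 3 of 7 meristemoid and GMC markers and 2 of 3 myrosin cell markers were higher, whose part was not tested.

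Tested at each time point on its own, SPCH against FAMA gave no call among the 41 genes with edgeR. By unadjusted p under 0.05 there were 5 at 2 h (4.84% of all genes), 2 at 3 h (8.72%) and 3 at 4 h (4.87%). The differences of TOP2 were 1.35, 0.80 and 1.51 at 2, 3 and 4 h on the log2 scale, and those of CDT1B 1.01, 1.51 and 1.06. DESeq2 called TOP2 at 2 h (adjusted p = 0.008136, with 0.741% of all genes called) and CDT1B at 3 h (adjusted p = 0.02085, with 0.814% called).

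The SRDX forms were also compared with the factor they carry. In SRDX-FAMA cells CDT1B and TOP2 were higher and RNR2A lower than in FAMA cells, 3 calls of 41, with 8.82% of 24396 genes called higher and 4.33% lower. CDT1B was 4.01-fold (log2 fold change 2.00, SE 0.266, adjusted p = 1.88e-05) and TOP2 3.63-fold higher (log2 fold change 1.86, SE 0.298, adjusted p = 0.000154). RNR2A (AT3G23580, chromosome 3 of TAIR10.1, 8459838 to 8462815) ran from 31.7 to 58.7 CPM (median 49.8) in SRDX-FAMA cells, against 51.4 to 85.2 CPM (median 76.8) in FAMA cells, and was 1.504-fold lower (log2 fold change -0.59, SE 0.0956, adjusted p = 0.0001727). The 3 calls held without the library labelled SRDX-FAMA 4 h replicate 2, at 2.05, 1.86 and -0.56. With the letter block RNR1 and ORC5, a subunit of the origin recognition complex, were added to the 3. Mitotic genes were higher for 23 of 24, with a median of 1.87, while 2 of 9 mature GC markers and 2 of 3 myrosin cell markers were lower, whose part was not tested.

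In SRDX-SPCH cells TOP2 was higher and RNR2A, RNR1 and FEN1 lower than in SPCH cells, 4 calls of 41, with 5.38% of 24640 genes called higher and 6.19% lower. TOP2 was 2.37-fold higher (log2 fold change 1.25, SE 0.239, adjusted p = 0.001425). RNR2A ran from 37.4 to 73.8 CPM (median 45.9) in SRDX-SPCH cells, against 53.6 to 101 CPM (median 68.7) in SPCH cells, and was 1.45-fold lower (log2 fold change -0.54, SE 0.097, adjusted p = 0.0009065). RNR1 was 1.49-fold lower, with 5.297 to 11.2 CPM (median 7.26) in SRDX-SPCH cells, against 8.73 to 16.5 CPM (median 11.2) in SPCH cells (log2 fold change -0.57, SE 0.128, adjusted p = 0.004701). FEN1 (AT5G26680, chromosome 5 of TAIR10.1, 9311446 to 9315550), which trims the flaps of the lagging strand, was 1.39-fold lower, with 10.7 to 20.03 CPM (median 13.9) in SRDX-SPCH cells, against 10.2 to 29.2 CPM (median 20.97) in SPCH cells (log2 fold change -0.47, SE 0.142, adjusted p = 0.03127). The 2 reductase genes thus fell together, and the third, TSO2, had a log2 fold change of 0.12. FEN1 lay at the threshold: it was lost with the replicate number as a block (adjusted p = 0.05317) and without SPCH 2 h replicate 3 or 4, 3 h replicate 1 or 4 h replicate 3 or 4, or SRDX-SPCH 2 h replicate 1 or 3, 3 h replicate 2 or 3 or 4 h replicate 4 (adjusted p 0.05002 to 0.06826). Of the mitotic genes 16 of 24 were higher, with a median of 0.74, and 5 of the 34 other replication genes were lower and 1 higher. Meristemoid and GMC markers were higher for 2 of 7, mature GC markers lower for 1 of 9 and myrosin cell markers lower for 1 of 3, and their part was not tested.

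Between the 2 SRDX lines no member passed in edgeR or in DESeq2. In edgeR 1.32% of 24482 genes were called higher in SRDX-SPCH cells and 1.67% lower, and 4 of 41 members had an unadjusted p under 0.05, beside 15% of all genes. These were TOP2 (0.64) and RPA2B (0.20), higher in SRDX-SPCH cells, and RNR1 (-0.42) and ORC1A (-0.24), lower. With the letter block TOP2 and ORC1A passed. Without the library labelled SRDX-FAMA 4 h replicate 2 there was again no call of a member and none moved by more than 0.10, while over all genes 586 were called higher and 695 lower, against 323 and 410 with it.

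The other abundant fork genes did not pass in any comparison of lines with edgeR in the full set without a block. Under the other settings RPA2B passed in SPCH against NLS without SPCH 4 h replicate 2, and RFC1 in SRDX-FAMA against FAMA with at least 10 counts in every library. In FAMA against NLS, the 95% intervals of their log2 fold changes were -0.11 to 0.17 for LIG1, -0.10 to 0.18 for RPA1A, -0.11 to 0.21 for RFC1 and -0.19 to 0.24 for POLD1. LIG1 averaged 45.4 ± 4.85 CPM in FAMA cells, 49.1 ± 6.17 in SPCH cells, 43.9 ± 4.63 in SRDX-FAMA cells, 45.1 ± 6.298 in SRDX-SPCH cells and 44.5 ± 4.13 in NLS cells. Its log2 fold changes against NLS were 0.03 for FAMA and 0.15 for SPCH, and -0.03 and 0.03 for the SRDX forms of FAMA and SPCH. SPCH cells had the highest LIG1 mean. RPA1A averaged 33.2 ± 3.51 CPM in FAMA cells, 33.99 ± 4.46 in SPCH cells, 30.6 ± 3.6 in SRDX-FAMA cells, 32.1 ± 5.85 in SRDX-SPCH cells and 32.4 ± 3.42 in NLS cells. The fold changes were 0.04 for FAMA and 0.08 for SPCH, and -0.08 and 0.01 for the SRDX forms of FAMA and SPCH. SRDX-FAMA cells had the lowest RPA1A mean. RPA2B, the middle RPA subunit, averaged 11.1 ± 1.61 CPM in FAMA cells, 11.8 ± 2.43 in SPCH cells, 10.1 ± 1.08 in SRDX-FAMA cells, 11.7 ± 1.53 in SRDX-SPCH cells and 10.03 ± 0.982 in NLS cells. Its fold changes were 0.15 for FAMA and 0.24 for SPCH, and 0.00 and 0.22 for the SRDX forms of FAMA and SPCH, and the smallest adjusted p was 0.1996. SPCH and SRDX-SPCH cells thus had the highest RPA2B means. The clamp loader subunit RFC1 averaged 28.2 ± 4.28 CPM in FAMA cells, 28.8 ± 3.18 in SPCH cells, 24.9 ± 2.31 in SRDX-FAMA cells, 26.98 ± 3.7 in SRDX-SPCH cells and 27.3 ± 2.94 in NLS cells. The fold changes were 0.05 for FAMA and 0.08 for SPCH, and -0.13 and -0.00 for the SRDX forms of FAMA and SPCH. RFC1 was lowest in SRDX-FAMA cells. PCNA1 averaged 7.46 ± 2.54 CPM in FAMA cells, 6.65 ± 2.65 in SPCH cells, 6.53 ± 1.79 in SRDX-FAMA cells, 7.57 ± 2.31 in SRDX-SPCH cells and 5.98 ± 1.41 in NLS cells. Its fold changes were 0.36 for FAMA and 0.18 for SPCH, and 0.14 and 0.35 for the SRDX forms of FAMA and SPCH. The PCNA1 means of all 4 lines lay above that of NLS. PCNA2 averaged 8.38 ± 1.72 CPM in FAMA cells, 8.03 ± 2.35 in SPCH cells, 7.91 ± 1.53 in SRDX-FAMA cells, 7.65 ± 1.31 in SRDX-SPCH cells and 8.45 ± 2.04 in NLS cells. Its fold changes were 0.00 for FAMA and -0.07 for SPCH, and -0.10 and -0.14 for the SRDX forms of FAMA and SPCH. PCNA1 and PCNA2 share no exact 50-base window within an exon, so full-length reads without mismatches inside an exon could be told apart. Reads across exon junctions were not checked. POLD1, the catalytic subunit of polymerase δ, averaged 11.1 ± 2.101 CPM in FAMA cells, 10.7 ± 1.84 in SPCH cells, 9.55 ± 1.53 in SRDX-FAMA cells, 9.79 ± 0.924 in SRDX-SPCH cells and 10.99 ± 1.42 in NLS cells. POL2A, that of polymerase ε, averaged 9.08 ± 2.08 CPM in FAMA cells, 8.73 ± 1.64 in SPCH cells, 9.37 ± 2.44 in SRDX-FAMA cells, 7.75 ± 1.62 in SRDX-SPCH cells and 8.35 ± 1.67 in NLS cells. The fold changes of both lay between -0.21 and 0.17.

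Among the genes of origins and helicase activation the members with the highest level were likewise close to NLS. ORC1A, the large origin recognition subunit, averaged 9.87 ± 1.16 CPM in FAMA cells, 9.87 ± 1.47 in SPCH cells, 10.3 ± 1.66 in SRDX-FAMA cells, 8.7 ± 0.954 in SRDX-SPCH cells and 10.3 ± 1.89 in NLS cells. ORC5 averaged 3.31 ± 1.34 CPM in FAMA cells, 3.29 ± 1.02 in SPCH cells, 4.36 ± 1.77 in SRDX-FAMA cells, 3.87 ± 1.01 in SRDX-SPCH cells and 3.97 ± 1.28 in NLS cells. SRDX-SPCH cells had the lowest ORC1A mean, and FAMA and SPCH cells the lowest ORC5 means. Of the GINS genes PSF3 averaged 2.698 ± 0.376 CPM in FAMA cells, 2.65 ± 0.409 in SPCH cells, 2.37 ± 0.452 in SRDX-FAMA cells, 2.62 ± 0.374 in SRDX-SPCH cells and 2.62 ± 0.411 in NLS cells. SLD5 averaged 4.25 ± 0.811 CPM in FAMA cells, 4.49 ± 0.7301 in SPCH cells, 4.16 ± 0.386 in SRDX-FAMA cells, 4.23 ± 0.319 in SRDX-SPCH cells and 4.03 ± 0.687 in NLS cells. The CAF-1 subunits, which place histones on new DNA, are FAS1 and FAS2. FAS1 averaged 2.93 ± 1.11 CPM in FAMA cells, 2.46 ± 0.5098 in SPCH cells, 2.37 ± 1.05 in SRDX-FAMA cells, 2.31 ± 0.819 in SRDX-SPCH cells and 2.45 ± 0.851 in NLS cells. FAS2 averaged 1.18 ± 0.457 CPM in FAMA cells, 1.25 ± 0.452 in SPCH cells, 0.993 ± 0.437 in SRDX-FAMA cells, 1.09 ± 0.398 in SRDX-SPCH cells and 0.963 ± 0.436 in NLS cells. None of these passed in any comparison of lines with edgeR in the full set without a block; with the letter block ORC5 and ORC1A each passed once, as given above. The remaining genes of these roles (ORC1B, ORC2, ORC3, ORC4, ORC6, PSF1, PSF2, MCM10, CDC45) did not pass under any setting tried, and against NLS their roles spanned -0.34 to 0.35 for origin recognition and -0.44 to 0.38 for helicase activation over the 4 lines. Some of these values carry annotation limits. Of the 50-base exon windows, 31.3% of those of PSF3 and 13% of those of SLD5 occur elsewhere in the genome. The exons of ORC1A, POLA1, POL2A and RPA2A overlap a gene on the other strand over 919, 870, 2151 and 583 bases. Those of PCNA2 and RPA2B do so over 279 and 241 bases. Without strand the reads of such a pair could not be separated. TOP2, CDT1B and RNR1 have no such overlap, RNR2A has 153 and FEN1 127 bases.

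The highest values of the 6 MCM genes often fell in the same library. FAMA 2 h replicate 2 held the highest FAMA value of all 6. SRDX-FAMA 2 h replicate 2 did so in its line for all 6, SPCH 2 h replicate 2 for 5 and SRDX-SPCH 2 h replicate 4 for 4. In NLS cells the highest values were split between 4 h replicate 1 and 3 h replicate 4, 3 each, and 4 h replicate 3 held the lowest value of all 6. In the other lines the lowest values were spread over 3 libraries (FAMA) or 4 (SPCH, SRDX-FAMA and SRDX-SPCH). The libraries named above for highest values carry the library letter a in FAMA and SPCH cells. Those of SRDX-FAMA, SRDX-SPCH and NLS cells carry the letter e. The part of the letter in these values was not tested. The spread was wide. MCM2 ran from 1.01 to 6.91 CPM (median 3.09) in FAMA cells and from 0.8695 to 4.24 CPM (median 2.25) in SPCH cells, against 1.21 to 6.45 CPM (median 2.73) in NLS cells. In the SRDX lines it ran from 1.08 to 10.8 CPM (median 3.16) in SRDX-FAMA cells and from 1.71 to 3.93 CPM (median 2.98) in SRDX-SPCH cells. All these MCM2 ranges overlap. MCM5 averaged 3.62 ± 1.68 CPM in FAMA cells, 3.02 ± 1.28 in SPCH cells, 4.57 ± 2.39 in SRDX-FAMA cells, 3.43 ± 1.13 in SRDX-SPCH cells and 4.14 ± 1.87 in NLS cells. MCM7 averaged 3.71 ± 1.47 CPM in FAMA cells, 2.85 ± 1.08 in SPCH cells, 4.41 ± 1.996 in SRDX-FAMA cells, 3.28 ± 1.13 in SRDX-SPCH cells and 4.18 ± 1.53 in NLS cells. Both means were highest in SRDX-FAMA and lowest in SPCH cells, but the library letters are not spread evenly over the lines. SRDX-FAMA and NLS cells had a library of letter e at each time, and SPCH cells had none at 4 h. Letter and line thus cannot be fully separated in these means. Within a library the 6 genes share its cells, depth and preparation, so they are not 6 separate observations.

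Over time no member passed in any line with edgeR (each pair of times was compared), where 0% of all genes passed in FAMA, SPCH, SRDX-FAMA and NLS cells and 0.0042% in SRDX-SPCH cells. Without the library labelled SRDX-FAMA 4 h replicate 2 there was no call in SRDX-FAMA cells either, and no member moved by more than 0.24. FAMA cells had the most members with an unadjusted p under 0.05 between 2 h and 4 h of DEX, 11 against 0 to 2 in the other lines. There 8 of the 41 genes were lower and 3 higher at 4 h, beside 8.56% and 5.58% of all genes tested. The 8 were MCM3, MCM4, MCM5, MCM6, MCM7, POLA1, POL2A and TSO2, and the 3 were RNR2A, RFC1 and FAS2. For 6 genes (MCM3, MCM4, MCM5, MCM7, POLA1 and TSO2) all 4 h libraries lay below all 2 h libraries, beside 4.54% of all genes, and for RNR2A all lay above, beside 3.54%.

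Single values show the size of this trend. MCM7 stood at 2.54, 2.65, 2.82 and 3.06 CPM in the 4 libraries of 4 h, against 4.17, 4.21, 5.91 and 6.66 CPM in the 4 of 2 h (log2 fold change -0.91, adjusted p = 0.1316). MCM5 stood at 1.78, 2.85, 2.89 and 3.03 CPM, against 3.14, 5.15, 5.62 and 7.26 CPM (-1.0, adjusted p = 0.1406). MCM4 stood at 1.31, 1.31, 1.44 and 1.99 CPM, against 2.05, 2.67, 3.98 and 4.696 CPM (-1.14, adjusted p = 0.1707). The ranges thus separate, by a narrow gap for MCM4 and MCM5. MCM3 had 2.39 to 3.49 CPM at 4 h, against 3.99 to 5.54 CPM at 2 h (-0.67, adjusted p = 0.1731), and POLA1, the catalytic subunit of the polymerase that starts each strand, 2.45 to 3.37 CPM, against 3.44 to 6.31 CPM (-0.82, adjusted p = 0.1438). MCM2 pointed the same way with overlapping ranges (-0.95, adjusted p = 0.3648). Lower values stood already at 3 h: against 2 h, MCM4 was at -1.60 and MCM3 at -0.87. Between 3 h and 4 h the median of the 6 MCM genes was 0.05. The 2 h and 3 h libraries of FAMA cells had only the library letter e in common, so letter and time cannot be fully separated there. DESeq2 called MCM3, MCM4, MCM5, MCM7 and POLA1 lower at 4 h than at 2 h (adjusted p 0.01321 to 0.03129, with 5.57% of all genes called) and MCM3 and MCM4 at 3 h (adjusted p = 0.0203 and 0.008556, with 1.85% called). The 5 H3.1 genes also had unadjusted p under 0.05 in this contrast, with a median of -0.92 and a smallest adjusted p of 0.09976, while none of the 24 mitotic genes did (median 0.11).

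**Figure D5:**
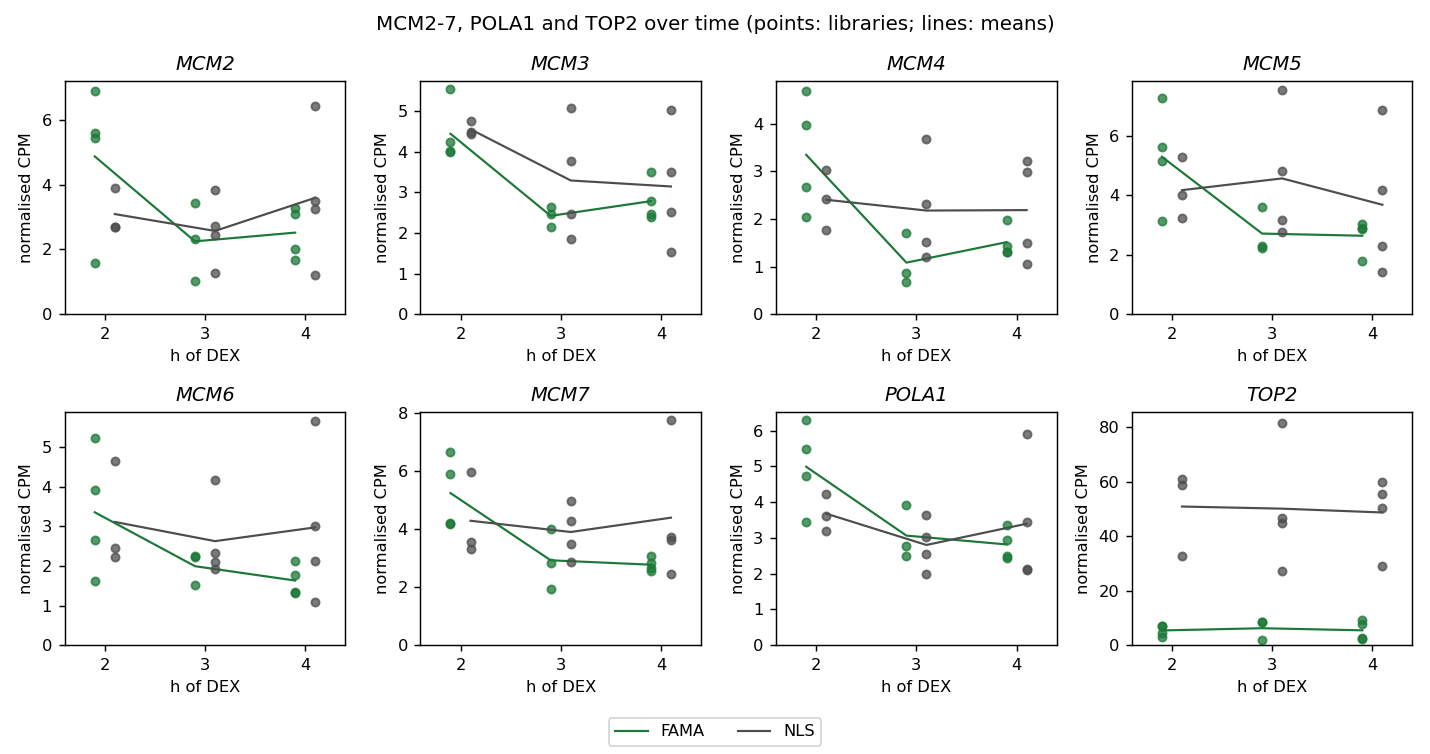
Normalised CPM of MCM2 to MCM7, POLA1 and TOP2 by time of DEX (2, 3 and 4 h) in FAMA (green) and NLS (grey) cells; points are libraries and lines join the means of each time point. In FAMA cells the 4 h points of MCM3, MCM4, MCM5, MCM7 and POLA1 all lie below the 2 h points, and TOP2 stays between 1.81 and 9.21 CPM at all 3 times.

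The same contrast in NLS cells was then set beside that of FAMA cells. In NLS cells 2 of the 41 genes had an unadjusted p under 0.05 from 2 h to 4 h, beside 4.8% of all genes: 1 lower, CDT1B (-0.87, adjusted p = 0.931), and 1 higher, PCNA1 (0.59). Of the mitotic genes 11 of 24 were lower there by unadjusted p, with a median of -0.67. The change of the FAMA line from 2 h to 4 h beyond that of NLS, a test added after seeing the data, gave no call, 3 members with an unadjusted p under 0.05 (MCM7, POL2A and ORC1B), all lower, beside 5.01% of all genes, and a median of -0.97 for the 6 MCM genes. For MCM7 it was -0.96 with a 95% interval of -1.91 to -0.01 (adjusted p = 0.9677). In SPCH cells 1 member was higher and 1 lower by unadjusted p from 2 h to 4 h, beside 3.65% and 3.62% of all genes, and beyond the change in NLS 1 member, beside 2.4%. In SRDX-FAMA cells 0 members (1.77% of all genes) and in SRDX-SPCH cells 1 member (6.03%) had such a p. TOP2 kept its low level in FAMA cells throughout: 2.91 to 7.06 CPM at 2 h, 1.81 to 8.41 CPM at 3 h and 2.28 to 9.21 CPM at 4 h, so the gap to NLS was present at the earliest time sampled. The same held for CDT1B, with 0.845 to 3.11 CPM, 0.894 to 1.93 CPM and 1.21 to 2.97 CPM in FAMA cells, against 6.85 to 8.82 CPM, 5.01 to 11.4 CPM and 3.98 to 5.12 CPM in NLS cells.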

How the data were processed

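The authors deposited 1 table of whole-number read counts per gene for 57 libraries (SMART-Seq v4 cDNA from sorted cells, 50-bp single-end reads). According to the study's methods and the submitters' processing notes, reads were aligned with STAR to TAIR10 and counted with HTSeq; the versions, the annotation and the strand setting are not given in the sources used here. The fold changes below were computed from these deposited counts. Genes were kept with filterByExpr (minimum count 10), normalised with TMM and tested with the quasi-likelihood test of edgeR 4.0.16 in R 4.3.3. Each comparison of lines used the libraries of its 2 lines with time as an additive term, comparisons over time used 1 line, and p-values were adjusted by the Benjamini-Hochberg method over all genes tested, with a threshold of 0.05. CPM values are TMM-normalised, except what 3 counts of CDC6B would be, which is given on the raw library total; RPKM values are these per kilobase of merged exons in TAIR10.1, and intervals are 95%.

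The alternatives were DESeq2 1.42.0 and its size factors in the edgeR test, the filter dropped or made stricter (10 counts or more in each library), a block for the replicate number or for the library letter, all libraries in 1 fit, and the omission of any 1 library. Fits with a block left out 1 FAMA 4 h column, which has no replicate number or letter. The comparison of the change over time with that in NLS was added after seeing the data. The members and gene lists were chosen with earlier results of these data known. Described in full were members past the threshold, the 2 of each role with the highest RPKM in NLS, and the PCNA genes; of other lists, the genes called in FAMA or SPCH against NLS with the smallest adjusted p, up to 3 a list. Where the labels number libraries they are called replicates; 1 FAMA 4 h column of the table carries no such number and was used without one.

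Same-numbered libraries of 2 lines did not deviate together throughout (FAMA and NLS: 6 of 9 pairs with a correlation over 0.1, SPCH and NLS: 2 of 11), so the number was not taken as a pairing. Libraries with the same letter did so more often (7 of 7 and 8 of 9), but the sources used here do not say what the letter marks.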

Additional observations from a re-analysis of the deposited data

Results flagged for a closer look

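In 9 of 132 sets of 4 libraries (11 members in 12 groups of line and time), 1 library stood apart from the other 3 by more than Dixon's critical value at the 95% level; chance gives about 5% of sets. All values here are CPM. Among the MCM genes, MCM3 was at 5.54 in FAMA 2 h replicate 2, with the others at 3.99 to 4.24. MCM5 was at 1.779 in FAMA 4 h replicate 2 (others 2.85 to 3.03), and MCM7 at 2.094 in SPCH 2 h replicate 4 (others 4.07 to 4.43). The licensing gene CDT1B stood high in 2 libraries, at 11.38 in SRDX-FAMA 2 h replicate 4 (others 4.17 to 4.92) and at 11.44 in NLS 3 h replicate 1 (others 5.01 to 6.10). POLA1 was at 6.487 in SRDX-FAMA 3 h replicate 4 (others 2.31 to 3.00). In that library RNR2A was low, at 34.19 (others 49.4 to 51.1). RNR2A was also at 64 in SPCH 3 h replicate 1 (others 68.5 to 69.4) and at 73.81 in SRDX-SPCH 4 h replicate 1 (others 43.7 to 46.7).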

How the results depend on the processing

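The 15 calls of a member in a comparison of lines kept their direction in all 447 values under other settings, and 30 of these did not pass the threshold, 27 of them of 342 with a library left out. All 30 belong to TSO2 (SPCH against FAMA) and FEN1 (SRDX-SPCH against SPCH). With a library left out, TSO2 lay between -0.47 and -0.37 and FEN1 between -0.55 and -0.42. With the replicate number as a block TSO2 was at -0.36 (adjusted p = 0.203, without the unnumbered FAMA library) and FEN1 at -0.43 (adjusted p = 0.05317). In 1 fit of all libraries TSO2 was at -0.41 (adjusted p = 0.1785). The replicate block changed no other call. TOP2 in FAMA against NLS lay between -3.27 and -3.04 with a library left out, and CDT1B between -1.95 and -1.70.

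The number of members called against NLS moved with the setting. For comparisons of lines, shares of all genes called are not given under the other fits and filters. The member counts there cannot be weighed against them. In SPCH cells it was 1, and 3 with DESeq2, 2 with at least 10 counts in every library, 5 with the letter block, and 1 to 3 with a library left out. In SRDX-FAMA cells it was 1, and 2 under each of these 3 settings. In SRDX-SPCH cells it was 1, and 3 under each of them and 1 to 2 with a library left out. The letter block gave 5 calls for SRDX-FAMA against FAMA (3 without it) and 2 for SRDX-SPCH against SRDX-FAMA (0 without it). DESeq2 gave 7 calls in FAMA cells over time, in 5 genes, and 2 for SPCH against FAMA by time point, where edgeR gave 0. The cause was not tested. Few counts limit the rare genes, of which the lowest had a median of 16 counts a library.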
